A study of Cricetulus griseus with 3 samples.

Results

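The spots described here carry the genes of enzymes that cut proteins at and outside the cell surface, and the genes of their inhibitors. They were chosen by name: every spot whose annotation held a single symbol of a matrix metalloproteinase (Mmp), ADAM or ADAMTS protease, tissue inhibitor of metalloproteinases (Timp), serpin, cystatin, proprotein convertase (Pcsk), Prss protease, urokinase or its receptor (Plau, Plaur) or kallikrein (Klk), with Adam10 and Adam17 set aside among the partner genes below. The name pattern found 87 spots of 61 genes among the 16928 spots tested, of which 12563 carried 1 symbol, from 8146 genes.

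These proteins act as a cascade. Most of the enzymes are made as inactive precursors: proprotein convertases remove the propeptides of many of them inside the secretory pathway, membrane-type metalloproteinases and plasmin activate others at the cell surface, and TIMPs, serpins and cystatins block metalloproteinases, serine proteases and cysteine proteases in turn. ADAM metalloproteinases are sheddases, which release the outer domains of membrane proteins, and the membrane stubs that remain are the substrates of γ-secretase.

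Both sides of every array were Chinese hamster ovary (CHO) cells, an established line. S-1 cells carried stable constructs for all subunits of γ-secretase (PS1, NCT-GST, APH1-a2-HA and Flag-PEN2), were derived from an intermediate CHO line, were marked in the study as also overexpressing APP (the amyloid precursor protein, a γ-secretase substrate), were kept under selection drugs and were given 0.05% DMSO for 24 h. The parental, untransfected CHO cells were given 10 µM DAPT, an inhibitor of γ-secretase, in the same 0.05% DMSO for 24 h. Each of 3 arrays paired a culture of S-1 cells with one of treated CHO cells, in 3 independent experiments, and the S-1 RNA was in Cy3 on arrays 1 and 2 and in Cy5 on array 3. S-1 is 1 line, and the constructs, the APP, the drugs, the derivation of the line and the inhibitor differed together on every array, so their parts in any ratio cannot be told apart.

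Each value is a log2 ratio with S-1 above and DAPT-treated CHO below the line, given as the mean ± SD over the 3 arrays, so that 1 stands for a doubling and a negative value means a lower signal in S-1 cells. A spot passed when its adjusted p (limma, Benjamini-Hochberg over all 16928 spots) was under 0.005. The ratios hold no expression level, and neither the levels of these genes in CHO cells nor the markers of the cells themselves could be read from them. The array held mouse cDNA, so each value also depends on how a hamster transcript bound to a mouse clone. Pearson's r between arrays ran from 0.878 (arrays 1 and 3) to 0.962 (arrays 1 and 2) across spots, which are no replicates of each other. The clones of the transfected subunits PEN2 (Psenen) and APH1A (Aph1a) had log2 ratios of 3.09 ± 0.25 and 2.02 ± 0.16, which sets the direction.

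Of the 87 spots, 11 were higher in S-1 cells (12.6%), against 9.68% of all tested spots, and 9 were lower (10.3%), against 8.52%. The other 67 did not pass. The shares thus stood close to those of the whole array, and the median log2 ratio of the 87 spots was 0.03 against 0.01 for all tested spots. The 20 spots past the threshold kept one sign on all 3 arrays and came from 18 genes, 9 in each direction. When the spots of a gene were averaged, 6 of the 61 genes were higher, against 12.4% of all genes, and 11 were lower, against 10.3%. The counts rested on array 2: without it 1 spot was higher (Timp4) and 2 were lower (Serpinf1 and Plau), when 1.55% and 0.591% of all spots passed. Without array 3, whose dyes were swapped, 17 were higher and 18 lower, when 18.8% and 18.2% of all spots passed.

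**Figure D1:**
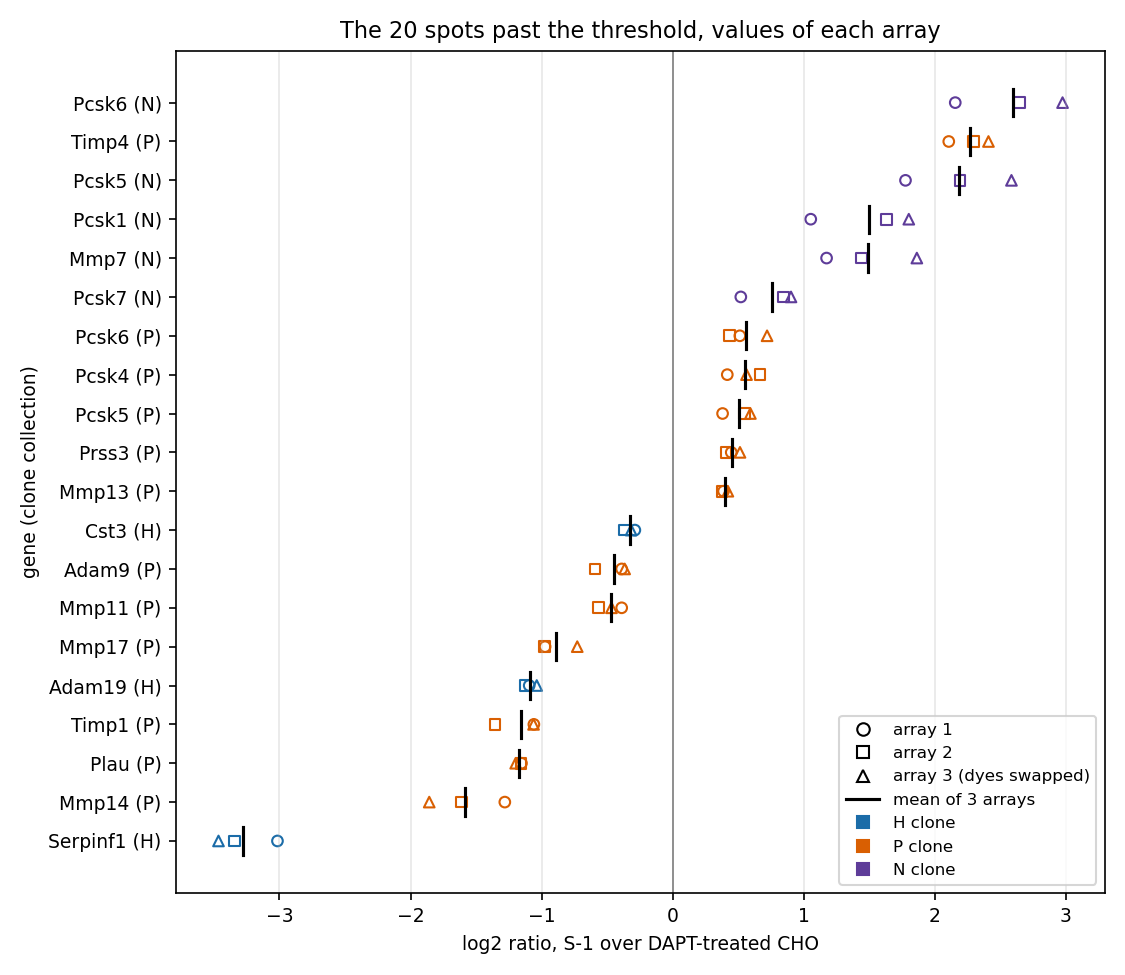
Log2 ratio (x axis, S-1 over DAPT-treated CHO) for each of the 20 spots past the threshold (y axis, with the clone collection of the spot), with a marker for each array and a black bar for the mean of the 3 arrays. The Serpinf1 spot lay below −3 on every array, and the highest ratios belonged to spots of Pcsk6, Timp4 and Pcsk5.

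Of the 3 spots of membrane-type matrix metalloproteinases, 2 were lower in S-1 cells (66.7%, against 8.52% of all tested spots). Mmp14, the membrane-type protease that activates pro-Mmp2 and cuts collagen at the cell surface, had log2 ratios of −1.28, −1.61 and −1.86 on arrays 1, 2 and 3. Its mean of −1.58 ± 0.29 (SD, n = 3 arrays, adjusted p = 6.12e-04, limma) amounted to a 3.00-fold higher signal in DAPT-treated CHO cells. Mmp17, a membrane-type protease held by a lipid anchor, gave −0.97, −0.98 and −0.73, with a mean of −0.89 ± 0.14 (adjusted p = 7.23e-04, limma). Mmp16, another enzyme of this type, gave ratios of 0.28, 0.45 and 0.22 (mean 0.32 ± 0.12) and did not pass (adjusted p = 0.013). All ratios of Mmp14 and Mmp17 lay below 0 and all ratios of Mmp16 above it. Neither Mmp14 (adjusted p = 0.0119) nor Mmp17 (adjusted p = 0.0135) passed without array 2.

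The sheddases Adam19 and Adam9 fell. Adam19, a metalloproteinase that sheds neuregulins, gave −1.09, −1.13 and −1.04, a mean of −1.09 ± 0.04 (adjusted p = 1.46e-04, limma) and a 2.12-fold higher signal in DAPT-treated CHO cells. Adam9, a widely made sheddase, gave −0.39, −0.59 and −0.37 (mean −0.45 ± 0.12, adjusted p = 0.00454, limma). The spots of the other catalytically active members on the array, Adam8 and Adam15, had means of 0.11 each and did not pass, and the 3 spots of Adam22 and Adam23, which have no working active site, lay between 0.03 and 0.08. Without array 2, neither Adam19 (adjusted p = 0.0053) nor Adam9 (adjusted p = 0.0367) passed, and Adam9 was also lost without array 1.

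The secreted matrix metalloproteinases did not move one way. Of 14 spots of 11 genes, 2 were higher (14.3%, against 9.68% of all tested spots), 1 was lower (7.14%, against 8.52%) and 11 did not pass. Mmp7, or matrilysin, gave 1.17, 1.44 and 1.86 on one spot (mean 1.49 ± 0.35, adjusted p = 0.00118, limma) and 0.14, 0.01 and −0.15 on another, assigned to the same transcript record. The ratios of the first spot were all above those of the second. Mmp13, a collagenase, was higher by a small amount that varied little, with ratios of 0.39, 0.38 and 0.42 (mean 0.40 ± 0.02, adjusted p = 0.00226, limma). Mmp11, or stromelysin-3, gave −0.39, −0.57 and −0.47 (mean −0.47 ± 0.09, adjusted p = 0.00241, limma). None of these 3 spots passed without array 2, and those of Mmp13 and Mmp11 did not pass without array 1 either.

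The gelatinases did not pass in the fit of all arrays. Mmp9 had 1 spot with ratios of 0.51, 0.93 and 1.30, a mean of 0.91 ± 0.39 and an adjusted p of 0.00747. Mmp2, the form that Mmp14 activates, gave 0.35, 0.90 and 1.13 on one spot (mean 0.79 ± 0.40, adjusted p = 0.0124) and −0.07, −0.05 and −0.03 on the other. The Mmp9 spot and the first Mmp2 spot passed as higher when each clone collection was centred (0.61, adjusted p = 0.00181, and 0.49, adjusted p = 0.00425, limma). They also passed with a dye term and without array 1 or array 3. Of all tested spots 8.69% were higher with centred collections and 20.6% with the dye term. Without array 1 the share was 4.58%, and without array 3 it was 18.8%. Mmp3, Mmp8, Mmp12 and Mmp20, which lie beside Mmp13 and Mmp7 in one run of genes in the hamster RefSeq assembly, had means between −0.03 and 0.06. Mmp23, a membrane-anchored enzyme counted with this group, had spots at −0.05 and 0.21, and Mmp19 had a mean of 0.26.

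None of the 12 spots of 9 ADAMTS genes, secreted proteases of proteoglycans and procollagens, passed the limma test (0 higher, 0 lower, with 1 and 3 at an unadjusted p under 0.05). Of all tested spots, 9.68% were higher and 8.52% lower. Among 12 spots, 0 calls cannot be told apart from those shares. Their means ran from −0.45 to 0.20. The lowest was Adamts4, an aggrecanase, at −0.28, −0.45 and −0.62 (mean −0.45 ± 0.17, adjusted p = 0.00812). The 3 spots of Adamts19 lay within 0.05 of each other. Adamts4 passed without array 3 and with the dye as a coefficient, when 18.2% and 19.7% of all tested spots were lower.

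**Figure D2:**
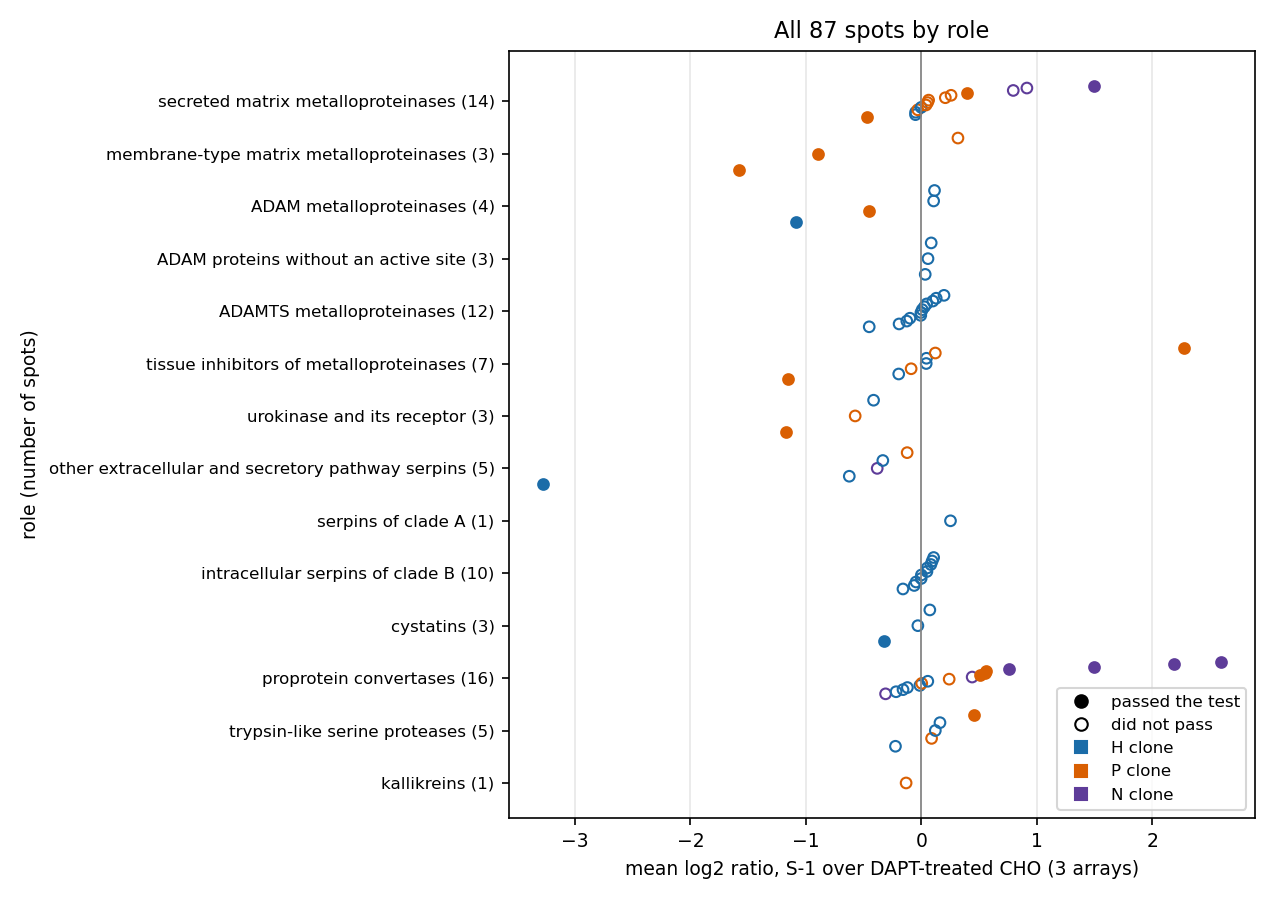
Mean log2 ratio over 3 arrays (x axis) of all 87 spots, grouped by the role of the protein with the number of spots in brackets (y axis), with filled circles for spots that passed and colours for the clone collections. Spots of ADAMTS proteases (−0.45 to 0.20) and clade B serpins (−0.16 to 0.11) stayed near 0, while convertase spots ran from −0.31 to 2.59.

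Among the metalloproteinase inhibitors, Timp1 was lower and 1 of 3 spots of Timp4 was higher. Timp1, a secreted inhibitor of most matrix metalloproteinases, gave −1.06, −1.36 and −1.06, a mean of −1.16 ± 0.17 (adjusted p = 4.61e-04, limma) and a 2.23-fold higher signal in DAPT-treated CHO cells. Timp4 gave 2.11, 2.30 and 2.41 on one spot, a mean of 2.27 ± 0.15 (adjusted p = 1.17e-04, limma) and a 4.82-fold higher signal in S-1 cells. A second spot of Timp4 gave −0.11, 0.23 and 0.24 (mean 0.12 ± 0.20, adjusted p = 0.316) and the third −0.26, −0.23 and −0.10 (mean −0.20 ± 0.09, adjusted p = 0.0377). All 3 were assigned to the same transcript record, so the direction for the gene depended on the clone read. The 3 spots of Timp3, the inhibitor that binds to the matrix and blocks Adam17, had means of −0.09, 0.04 and 0.04. Without array 2 the high Timp4 spot passed and Timp1 did not (adjusted p = 0.00519).

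Timp2 was no member, because its spots also carried the symbol of an overlapping gene, Cep295nl. Timp2 blocks metalloproteinases and also bridges Mmp14 to pro-Mmp2 when that enzyme is activated. Both spots were lower in S-1 cells, and they are named here after their values were seen. One gave −2.20, −2.67 and −3.05 (mean −2.64, adjusted p = 3.67e-04, limma) and the other −2.14, −2.28 and −2.65 (mean −2.36, adjusted p = 1.60e-04, limma). All 6 ratios lay below every ratio of Mmp14 and Timp1. Which of the overlapping genes the spots measured was not tested. Of 5 further spots with several symbols that fit the name pattern, 1 passed, a spot shared by Adam4 and other genes at 0.55, while the spots with those same symbols gave −0.32 (adjusted p = 0.0647) and −0.38 (adjusted p = 0.00905).

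Urokinase, the serine protease that turns plasminogen into plasmin, was lower in S-1 cells on every array by nearly the same amount. The Plau spot gave −1.15, −1.16 and −1.20, a mean of −1.17 ± 0.02 (adjusted p = 1.25e-04, limma) and a 2.25-fold higher signal in DAPT-treated CHO cells, and it passed when any one array was left out. Plaur, the receptor that holds urokinase at the surface, had 2 spots, neither of which passed. One gave −0.45, −0.43 and −0.84 (mean −0.57 ± 0.23, adjusted p = 0.00762) and the other −0.19, −0.40 and −0.66 (mean −0.41 ± 0.23, adjusted p = 0.023). All 9 ratios of the 3 spots of enzyme and receptor lay below 0. Both Plaur spots passed as lower with the dye as a coefficient (adjusted p = 2.86e-06 and 6.75e-05, limma) and without array 3. In these runs 19.7% and 18.2% of all tested spots were lower, against 8.52% in the main fit.

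The lowest of the 87 spots was that of Serpinf1, which encodes pigment epithelium-derived factor, a secreted serpin without protease-blocking activity that is known as an inhibitor of blood vessel growth. It gave −3.02, −3.35 and −3.47, a mean of −3.28 ± 0.23 (adjusted p = 1.17e-04, limma) and a 9.68-fold higher signal in DAPT-treated CHO cells. This spot was the only one of the gene and passed under every alternative run.

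Serping1, the inhibitor of the first complement proteases, gave −0.55, −0.45 and −0.87 (mean −0.63 ± 0.22) and stood just outside the threshold as a spot (adjusted p = 0.00528) and just inside as a gene value (adjusted p = 0.00469). Serpinh1, a collagen chaperone of the endoplasmic reticulum, did the same at −0.35, −0.39 and −0.27 (mean −0.33 ± 0.06, adjusted p = 0.00536 as a spot and 0.00422 as a gene value). Each of these genes had 1 spot, so the spot and the gene value held the same ratios. The calls differed through the fit and the adjustment, which covered 16928 spots in one case and 8146 genes in the other. Serpini2 had a mean of −0.38 ± 0.58 with ratios of −0.84, −0.58 and 0.27, and Serpind1, or heparin cofactor II, a mean of −0.12. Serpina6, which carries corticosteroids in blood, had a mean of 0.25 (adjusted p = 0.0113).

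The 10 spots of 8 clade B serpins, which mostly stay inside cells, lay between −0.16 and 0.11. None was called by limma (0 higher, 0 lower, with 0 and 1 at an unadjusted p under 0.05), against 9.68% and 8.52% of all tested spots. Among 10 spots, 0 calls cannot be told apart from those shares. Of the cystatins, Cst3, a widely secreted inhibitor of cysteine cathepsins, was lower at −0.29, −0.37 and −0.32 (mean −0.32 ± 0.04, adjusted p = 0.00467, limma), the smallest change among the spots that passed. Without array 1 or array 2 it did not pass. Cstb and Cst12 had means of −0.03 and 0.07. Over the inhibitor families as a whole, 1 of 26 spots was higher (3.85%, against 9.68% of all tested spots) and 3 were lower (11.5%, against 8.52%). In gene values 1 of 20 was higher (5%, against 12.4% of all genes) and 5 were lower (25%, against 10.3%).

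The proprotein convertases held 7 of the 11 higher spots, 43.8% of their 16 spots against 9.68% of all tested spots. Clones on this array came from collections marked H, P and N by the first letter of their names, and the 7 were 3 P and 4 N spots, in collections where 19.3% and 28.1% of all spots were higher. All N spots of the convertases sat at a position beside the control spots. There 46.9% of N spots were higher, against 21.9% of N spots elsewhere. The part of that position was not tested. No H spot of a convertase passed. The 16 spots came from 5 genes, and each gene had at least 1 spot that was higher and 1 that did not pass. Pcsk6 gave 2.16, 2.65 and 2.97 on one spot (mean 2.59 ± 0.41, adjusted p = 3.61e-04, limma, 6.03-fold), 0.51, 0.43 and 0.72 on a second (mean 0.56 ± 0.15, adjusted p = 0.00314, limma) and −0.23, −0.26 and −0.17 on the third (mean −0.22 ± 0.05, adjusted p = 0.0177). The ratios of the 3 spots did not overlap.

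Pcsk5, which like Pcsk6 works in the secretory pathway and at the cell surface, gave 1.78, 2.19 and 2.58 on one spot (mean 2.18 ± 0.40, adjusted p = 5.79e-04, limma, 4.54-fold) and 0.38, 0.55 and 0.59 on a second (mean 0.51 ± 0.11, adjusted p = 0.00265, limma). On its other spots the means were −0.16 ± 0.07 and 0.05 ± 0.05. For Pcsk5 and for Pcsk6 the spot with the highest ratio was assigned to another transcript record than the rest. Both were also N spots at the position beside the control spots. The higher spot of Pcsk1 sat there too, and the 2 spots of Pcsk1 shared a record. Whether the Pcsk5 and Pcsk6 records were different isoforms in hamster cells was not tested, and nor was the part of the position.

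Pcsk1, the convertase of prohormones in endocrine cells, gave 1.05, 1.63 and 1.80 on one spot (mean 1.49 ± 0.39, adjusted p = 0.0016, limma) and −0.07, −0.04 and 0.12 on the other. Pcsk7, a convertase of many tissues, had 5 spots. One was higher at 0.52, 0.84 and 0.90 (mean 0.76 ± 0.21, adjusted p = 0.00247, limma), and the others had means of 0.24, −0.01, −0.12 and −0.31, the last with an adjusted p of 0.00666. Pcsk4, a convertase of germ cells, gave 0.42, 0.67 and 0.56 (mean 0.55 ± 0.13, adjusted p = 0.00248, limma) on one spot and 0.11, 0.37 and 0.84 (mean 0.44 ± 0.37, adjusted p = 0.0617) on the other. All 6 ratios of Pcsk4 lay above 0. Furin, the founding member of the family, is named after its values were seen. Its spots disagreed too, but the one that passed was lower, at −0.60, −0.68 and −0.41 (mean −0.56, adjusted p = 0.00277, limma), and the other gave 0.25, 0.67 and 0.76 (mean 0.56, adjusted p = 0.013). None of the 7 convertase spots passed without array 2.

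Of the other serine proteases, 1 of 2 spots of Prss3, a trypsin, was higher at 0.45, 0.41 and 0.51 (mean 0.46 ± 0.05, adjusted p = 0.00186, limma), and the other gave −0.04, 0.19 and 0.11. Without array 1 or array 2 the first spot did not pass either. Spots of Prss35, Prss44 and Prss53 had means between −0.23 and 0.16, and that of Klk10 a mean of −0.13.

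**Figure D3:**
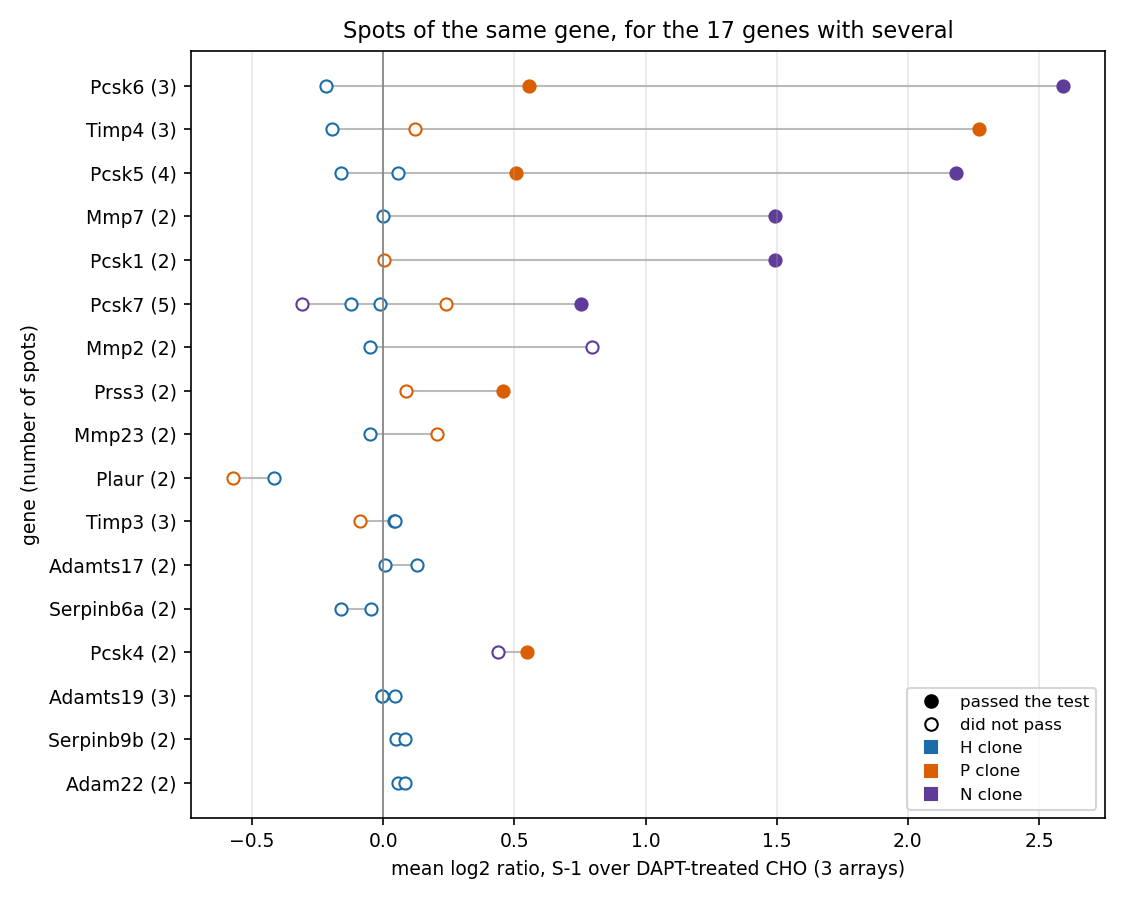
Mean log2 ratio over 3 arrays (x axis) of each spot of the 17 genes with several spots (y axis, number of spots in brackets), joined by a line per gene, with filled circles for spots that passed and colours for the clone collections. In none of the 17 genes did all spots pass, and the widest gap was that of Pcsk6, from −0.22 to 2.59.

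The array held 17 genes with several spots, 43 spots in all. In 8 of them at least 1 spot passed, and in 0 of these 8 did all spots pass. The genes whose averaged value was higher were Pcsk6 (0.98), Pcsk1 (0.75), Mmp7 (0.75), Timp4 (0.73), Pcsk5 (0.65) and Mmp13 (0.40), and all but Mmp13 averaged spots that differed in call. The averaged values of Pcsk4 (0.49), Prss3 (0.27) and Pcsk7 (0.11) did not pass. The genes whose averaged value was lower had 1 spot each. The clone collections H, P and N occupied fixed positions on the array. For 9 genes with H spots and P or N spots, the mean of the P and N spots was above that of the H spots in 7 (Mmp2, Mmp7, Mmp23, Pcsk5, Pcsk6, Pcsk7 and Timp4) and below it in 2 (Plaur and Timp3).

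The calls of the 87 spots were then read by collection. Of 50 H spots, 0 were higher by the limma test (4 at an unadjusted p under 0.05), against 6.76% of all H spots, and 3 were lower (Serpinf1, Adam19 and Cst3), against 8.52%. Of 27 P spots, 6 were higher, against 19.3% of all P spots, and 6 were lower, against 12.8%. Of 10 N spots, 5 were higher, against 28.1% of all 128 N spots, and 0 were lower (1 at an unadjusted p under 0.05), against 4.69%. The N spots also differed by array: 9 of these 10 had their highest ratio on array 3, as did 89.8% of all N spots, against 14 of 50 H spots here and 37.1% of all H spots. Of the 10, 6 sat at a position beside the control spots, and these were the N spots of Pcsk1, Pcsk4, Pcsk5, Pcsk6 and Pcsk7. Of these 6, 4 were higher, as were 15 of all 32 N spots there and 21 of the 96 N spots elsewhere. The part of the collection and the position in these ratios was not tested. When each collection was centred on its own median, all 20 spots still passed, but the N spots came nearer to 0: Pcsk7 went from 0.76 to 0.46, Pcsk1 from 1.49 to 1.19, Mmp7 from 1.49 to 1.19, Pcsk5 from 2.18 to 1.88 and Pcsk6 from 2.59 to 2.29.

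**Figure D4:**
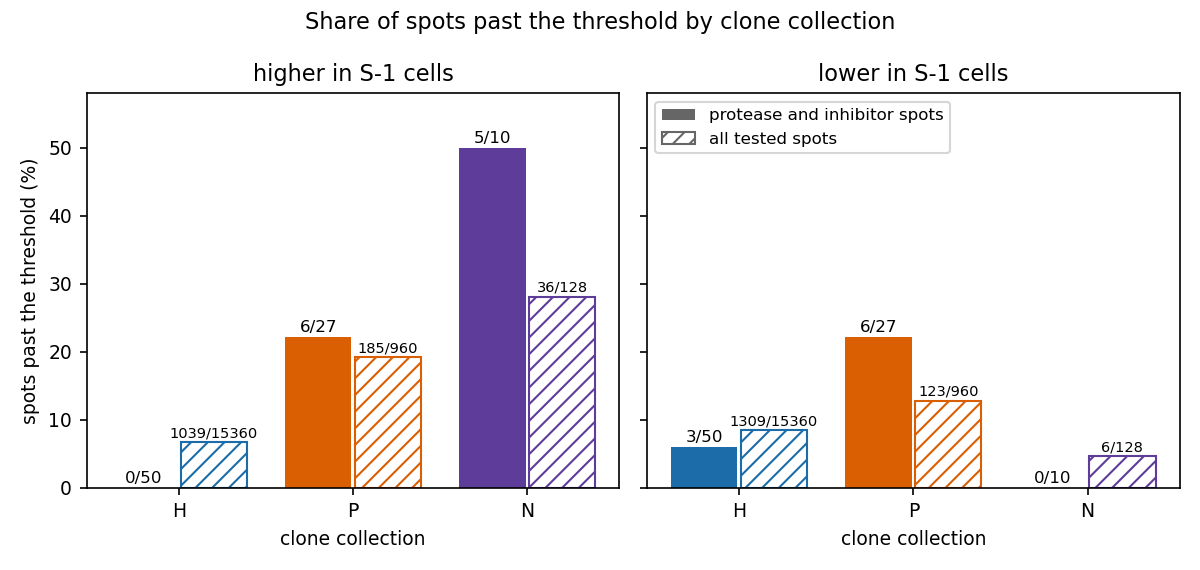
Share of spots past the threshold (y axis, %) in each clone collection (x axis), higher in S-1 cells on the left and lower on the right, with filled bars for the protease and inhibitor spots, hatched bars for all tested spots and the counts above the bars. The higher share was 0 of 50 among H spots and 5 of 10 among N spots, while lower spots were 3 of 50 and 0 of 10.

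Proteases, receptors and inhibitors that work with these genes but fall outside the name pattern were read as gene values. Of 66 listed, 30 had a spot with a single symbol and were read. Of these 30, 5 were higher (16.7%, against 12.4% of all genes), 7 were lower (23.3%, against 10.3%) and 18 did not pass. Listed genes without such a spot, such as Lrp1, which the study reported as lower, were not read. The median log2 ratio of the 30 was −0.03. Bmp1, the procollagen C-proteinase, gave −1.24, −1.35 and −1.50 (mean −1.36 ± 0.13, adjusted p = 1.72e-04, limma), and all 3 of its spots were lower. Pcolce, which enhances the activity of Bmp1, gave −0.62, −0.78 and −1.12 (mean −0.84 ± 0.25, adjusted p = 0.0026, limma). F2r, the thrombin receptor, had a mean of −1.22 ± 0.29 (adjusted p = 0.00115, limma), Pros1, or protein S, a mean of −0.79 ± 0.06, and Adam10, the main sheddase of Notch, a mean of −0.58 ± 0.06 (adjusted p = 7.96e-04, limma). The Adam10 value averaged a spot that was lower (−0.86) and one that did not pass (−0.30, adjusted p = 0.0143). Tfpi and Dpp4 were the others that fell, by 0.38 and 0.29 on the log2 scale. The Tfpi value averaged a lower spot at −0.81 and one at 0.05 that did not pass (adjusted p = 0.392).

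The partner genes that rose were Thbs1 (1.10 ± 0.20), Vtn (0.56 ± 0.17), F3, or tissue factor (0.47 ± 0.02), F2, or prothrombin (0.44 ± 0.13), and Cela1, an elastase (0.37 ± 0.05). Only F3 was read from an H spot. The 1 spot of Thbs1 lay at one of 480 positions, called unlisted here, where no clone of the study's lists lay and where 378 spots were higher, with a median of 1.56. Without those positions 4 of 29 partner genes were higher and 6 lower: Thbs1 had no spot, and Dpp4 did not pass (adjusted p = 0.00511). Tissue-type plasminogen activator, Plat, just missed the threshold at −0.31, −0.25 and −0.28 (adjusted p = 0.0053), and the gene value of plasminogen was 0.23 (adjusted p = 0.0108). The spots of Adam17 disagreed, with means of −0.59, 0.49 and −0.20, of which the second passed as higher (adjusted p = 0.00208, limma). Without array 2, of the 12 partner genes Bmp1 and Pros1 passed.

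Cathepsins and legumain are proteases of the lysosome, and the cysteine proteases among them are targets of cystatins. Of 15 listed, 8 had a spot with a single symbol and were read. Of these 8, 5 were lower (62.5%, against 10.3% of all genes) and 3 did not pass. By the limma test 0 were higher (2 at an unadjusted p under 0.05), against 12.4% of all genes. Ctsl gave −0.90, −1.07 and −0.99 (mean −0.98 ± 0.09, adjusted p = 2.37e-04, limma) and was lower on both of its spots. Ctsd, an aspartic protease, had a mean of −0.85 ± 0.22 (adjusted p = 0.00174, limma) and was lower on all 5 of its spots. Ctsa, Lgmn and Ctsb had means of −0.87, −0.81 and −0.74, while 1 of the 2 spots of Ctsb did not pass (mean −0.17). Ctsc had a mean of 0.24 (adjusted p = 0.00924) over 4 spots, of which 1 was higher at 0.93 (adjusted p = 3.72e-04, limma) and the others lay at 0.10, 0.07 and −0.12. Without array 2, Ctsl alone of these passed.

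**Figure D5:**
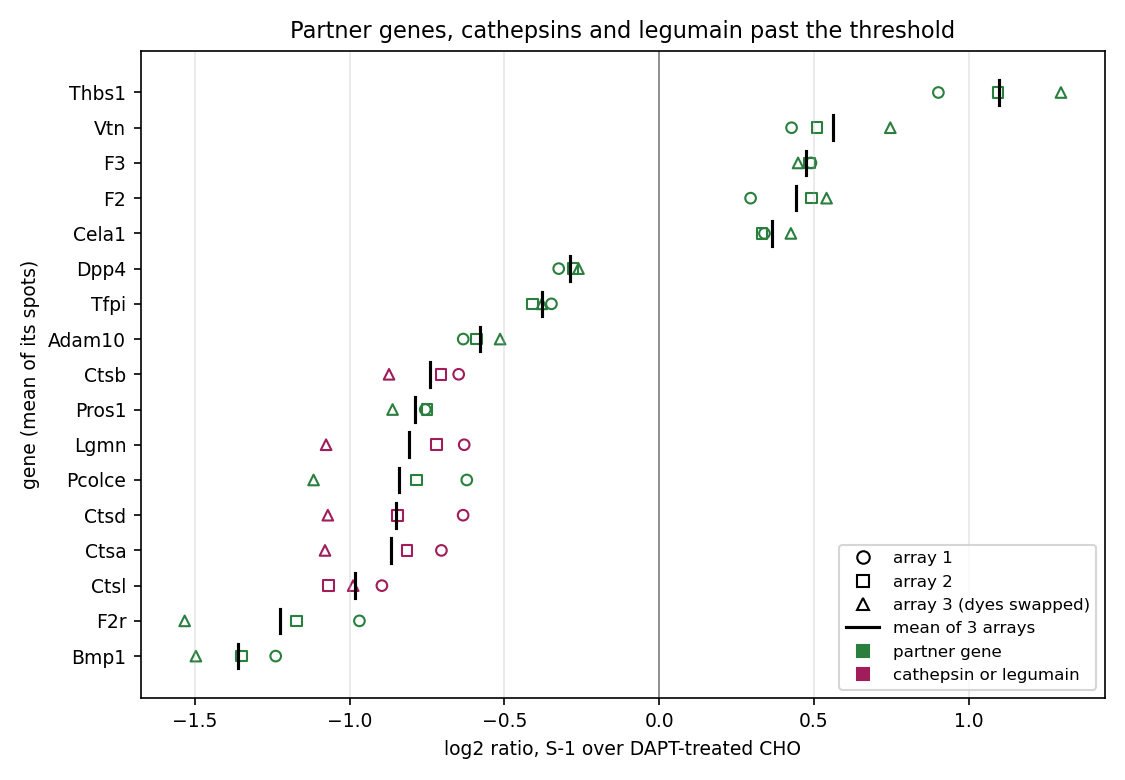
Log2 ratio (x axis, S-1 over DAPT-treated CHO) of each partner gene, cathepsin or legumain past the threshold (y axis, mean of the spots of the gene), with a marker for each array and a black bar for the mean of the 3 arrays. All 5 cathepsin and legumain genes and 7 partner genes lay below 0 on every array, and 5 partner genes lay above 0.

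Several of the genes that were higher are known from liver, pancreas or testis, so markers of tissues other than ovary were read in the same way. Only markers with a spot of a single symbol were read. Of 14 liver markers 7 had such a spot. Ahsg, Apoa2, Apob and Apoa1 were higher (gene values of 2.45, 2.42, 1.48 and 1.08) and Alb was lower (−0.36). Serpina1a, another of the 14, shared a spot with other serpin symbols, which did not pass (mean −0.09). Each of the 4 higher ones had a spot at the unlisted positions, which hold none of the 87 spots. Without those positions Apoa1 was higher (0.34), Apob did not pass (0.25, adjusted p = 0.00814), and Ahsg and Apoa2 had no spot. Of 10 markers of exocrine pancreas 5 were read and 2 were higher (Cela1, 0.37, and Cel, 1.38). The Cel value averaged an unlisted spot at 2.55 and a P spot at 0.21 that did not pass. Of 10 markers of blood and immune cells 2 were read and Cd14 was higher (0.65). Of 9 markers of testis 1 was read, Odf2, and its gene value did not pass. That value averaged opposed H spots, a lower one at −0.45 (adjusted p = 0.00355, limma) and one at 0.46 that did not pass (adjusted p = 0.00648). The part of these tissue markers in the results for the 87 spots was not tested. Leaving out the 480 spots changed none of the 20 calls of the protease and inhibitor spots.

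Of the 67 spots that did not pass, 39 had the same sign on all 3 arrays, and 8 with a positive and 9 with a negative mean had an adjusted p between 0.005 and 0.05. With a dye term in the fit 15 of the 67 passed, and without array 3 also 15, with Serping1, Serpinh1 and Mmp16 among them each time. Calls rose over the whole array in these runs: 40.4% and 37% of all tested spots passed, against 18.2% in the main fit. For 59 of the 87 spots the 95% interval of the mean lay within 0.5 of 0 on the log2 scale, of which 1 passed. The number of arrays limited the precision.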

How the data were processed

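The authors hybridised amplified RNA of S-1 and DAPT-treated CHO cells to 2-colour mouse cDNA arrays, read them with GenePix Pro and normalised them by lowess within print-tip groups, with no background subtracted. The deposited log2 ratios (1 per spot and array, 3 arrays) were used as given. Their direction, S-1 over DAPT-treated CHO on all arrays, was checked on the transfected subunits. Signal intensities were not used here, so signal over background is unknown.

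Of 17664 spots, 736 without a gene name at positions repeated in each block followed the dye (r = 0.989 between arrays 1 and 2, −0.960 between arrays 1 and 3) and were left out as control spots, after their values were seen. Collections were read from position: clones of the study's lists were paired to spots by their fold (relative tolerance 6e-06), and the letter fitted for 2513 of 2514. The listed folds were matched to 2 times the linear ratio, so folds given here are smaller than those the study listed. No other use was made of the authors' folds and p-values. limma 3.58.1 in R 4.3.3 fitted each spot, and each gene value (mean of the spots with the same single symbol), against 0, with Benjamini-Hochberg adjustment and the threshold of 0.005 that the study used. The fit was tested on simulated data. Python 3.11.15 with pandas 2.3.3, NumPy 2.4.6 and Matplotlib 3.10.9 made tables and figures. Gene names came from the platform annotation, and 47 of 61 symbols were found in the hamster RefSeq gene table (CriGri-PICRH-1.0), which gave the gene neighbours.

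The members, the roles, the lists (partner genes, cathepsins and legumain, and markers of liver, exocrine pancreas, blood and immune cells, and testis) and the tests were chosen with earlier results of these data known. Genes named were the spots past the threshold (up to 15 higher and 15 lower ones of one sign throughout), all spots of genes whose spots differed in call, all Timp, Plau, Plaur and Pcsk spots, up to 4 passing spots per role and up to 5 passing genes per list and direction. Others named, such as spots near the threshold, were chosen after their values were seen. Alternatives were a threshold of 0.05, a linear ratio of at least 1.5, centring, scaling and quantile normalisation of arrays, centring of collections, H clones alone, the dye as a coefficient, control spots included, the median of spots, and each array left out. Leaving out the unlisted spots, and the alternatives for the partner and cathepsin lists, were added after the values were seen.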

Additional observations from a re-analysis of the deposited data

How the results depend on the processing

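No call among the 87 spots changed its direction under any alternative run. Centring each array, scaling or quantile normalisation kept all 20 calls and added Serping1, and centring the clone collections kept 20 and added 3. At an adjusted p under 0.05, 19 spots were higher and 18 lower (20.9% and 18.8% of all spots), 14 genes were higher and 14 lower, 7 partner genes were higher and 11 lower, and 1 cathepsin gene was higher and 6 lower. With a linear ratio of at least 1.5, 6 spots were higher and 6 lower, and 5 genes were higher and 7 lower. At that ratio 1 partner gene was higher and 4 were lower. The share over all features was not counted at that ratio, nor the share over all genes at 0.05. With H clones alone, 0 spots were higher and 3 lower, against 6.84% and 8.58% of all H spots. In that run 0 genes were higher and 4 lower, against 8% and 10.7% of all genes. There 1 partner gene was higher and 6 lower, from fewer spots. With the dye as a coefficient, 18 spots were higher and 17 lower (20.6% and 19.7% of all spots), 13 genes were higher and 14 lower (23.2% and 21.8% of all genes), and 1 cathepsin gene was higher and 6 lower. With control spots included, 3 spots were higher and 6 lower (3.84% and 2.87% of all spots). Without the unlisted spots, no call among the 87 spots changed, and 4 partner genes were higher and 6 lower.

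Leaving out 1 array gave 1 to 17 spots higher and 2 to 18 lower, 0 to 11 genes higher and 5 to 14 lower, 0 to 7 partner genes higher and 2 to 10 lower, and 0 to 1 cathepsin genes higher and 1 to 6 lower. Over all spots 1.55% to 18.8% were higher in these runs and 0.591% to 18.2% lower. Over all genes 3.89% to 21.2% were higher and 2.07% to 19.3% lower. The lowest counts came without array 2 and the highest without array 3. Of the 20 spots, 12 were kept when array 1 was left out, 3 when array 2 was and 20 when array 3 was, and 9 with control spots included. Serpinf1, Plau and the high Timp4 spot passed under every alternative run that held them. The run of H clones alone left out the Plau spot and the high Timp4 spot, which were P spots. Why array 2 mattered most was not tested. Each ratio already pairs the cultures that share a number, on one array, so the fit of the ratios against 0 was itself the paired analysis. Signal over background was not used here, so dim spots could not be set apart.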
